A study of Ovis aries with 6 samples.

Results

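The genes described here encode 3 peptide hormone precursors, GCG (proglucagon), CCK (cholecystokinin) and PENK (proenkephalin), and 2 receptors of tachykinin peptides, TACR1 and TACR3. They are 5 of the 30574 genes in the count tables, and they were chosen by their measured levels across granulosa states, stromal subtypes, other ovarian cell types and samples in earlier readings of these data. Where each gene is high is therefore a description and was not tested. All 5 genes were found in the tables by symbol.

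The data are 10x Genomics 3' single-cell RNA-seq libraries from the ovaries of 6 adult Hu sheep, a prolific Chinese breed, and each library comes from 1 ewe slaughtered at estrus. Of these, 3 ewes with litters of 3 or more lambs formed the high-reproduction group (HLS), and 3 ewes with litters of fewer than 2 formed the low-reproduction group (LLS). The labels name no treatment and no engineered allele in either group, and 1 ovary was taken from each ewe. All groups share 1 estrous stage, and a class of granulosa cells is known only from the follicles of that ovary.

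The deposited tables held 52290 barcodes, and 36457 cells were retained after filters and removal of 2007 called doublets, between 5189 and 7096 per ewe. The median unique molecular identifier (UMI) count per retained cell ranged from 5187 to 9648.5 between ewes. Among retained cells 140 barcode sequences (0.385%) occurred in more than 1 library. Clusters were named from marker genes, and the names carry an implied "-like". The classes used most were mural-type granulosa cells (766 cells, with the markers HTRA3, JPH1 and IGFBP5), adventitial stroma (1576 cells, PI16, DPT and MFAP5), LHX9 stroma (4304 cells, led by CRABP1) and Schwann cells (138 cells, CDH19 and SOX10). The same marker lists named the classes, so the ranks below describe the classes and do not test their names. CDH19 and SOX10 had their highest levels in the Schwann class. In the mural-type class 6 of the 8 mural-type markers had theirs, while CITED2 ranked 2 and CYP11A1 3. Of the 6 adventitial markers PI16, DPT and MFAP5 ranked first in the adventitial class, while PCOLCE2 ranked 2, CD34 5 and CLEC3B 6. LHX9 itself, at 0.578 ± 0.133 UMI per 10000 UMI (SD, n = 6 ewes), ranked second there among classes.

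Peptide hormones are made as long precursors that prohormone convertases cut inside the secretory pathway. Proglucagon gives glucagon in the pancreas and glucagon-like peptides in the gut and brain, cholecystokinin drives gallbladder contraction and acts as a neuropeptide, and proenkephalin gives the enkephalins, ligands of opioid receptors. The tachykinins are short peptides from TAC1 (substance P and neurokinin A) and TAC3 (neurokinin B); TACR1 prefers substance P, TACR2 neurokinin A and TACR3 neurokinin B. Neurokinin B signaling is best known in the hypothalamus, where it acts on the neurons that time GnRH release, and tachykinins of the reproductive tract are known for effects on smooth muscle.

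A level below is the UMI of a gene per 10000 UMI of the class, computed in each ewe with at least 10 cells of the class and then averaged over ewes. The 5 genes gave very different totals. In all retained cells there were 8294 UMI of GCG in 334 cells, 3991 UMI of PENK in 1056 cells, 595 UMI of TACR3 in 403 cells, 427 UMI of CCK in 186 cells and 91 UMI of TACR1 in 69 cells. Intervals and floors given below cover counting error only.

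**Figure D1:**
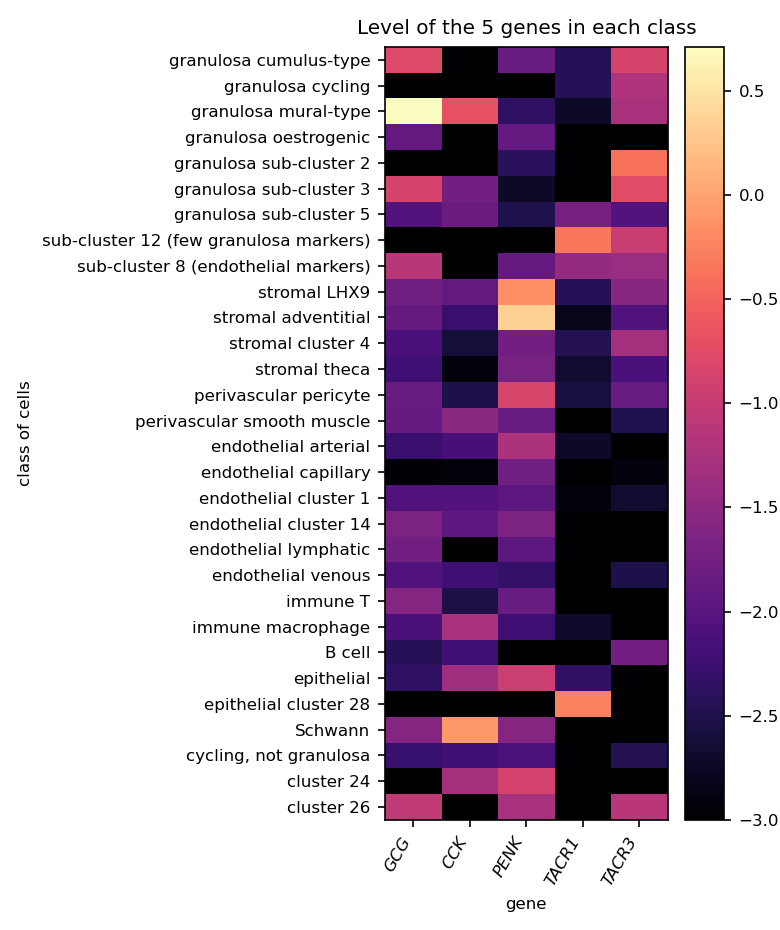
Mean level of each gene (columns) in each class of cells held by at least 2 ewes (rows), as log10 of UMI per 10000 UMI plus 0.001, averaged over ewes. GCG stands out in mural-type granulosa cells (5.13 UMI per 10000 UMI), PENK in adventitial (2.25) and LHX9 stroma (0.710), CCK in Schwann cells (0.822), TACR1 in epithelial cluster 28 (0.550) and TACR3 in granulosa sub-cluster 2 (0.406).

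GCG was a mural-type granulosa transcript. That class held 8020 of its 8294 UMI (96.7%), although 103 of the 766 cells (13.4%, exact 95% interval 11.1 to 16.1%) had any GCG UMI. The level was 15.4 UMI per 10000 UMI in HLS1, 0 in HLS2, 0.036 in HLS3, 7.60 in LLS1, 7.27 in LLS2 and 0.407 in LLS3. Thus 1 HLS ewe and 2 LLS ewes were high, the other 3 were low, and the groups overlapped. The mean was 5.13 ± 6.19 (SD, n = 6 ewes), and 3.06 without HLS1. HLS2 gave 45 mural-type cells, and a count of 0 there allows a level of up to 0.0527 UMI per 10000 UMI.

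Within the class, GCG sat in a small set of cells with very many copies. At least 100 UMI were counted in 23 cells and at least 10 UMI in 56 cells, the highest cell held 1161 UMI, and the 10 highest cells held 53.5% of the class total. The cells with at least 100 UMI were 12 of 195 in HLS1, 2 of 52 in LLS1 and 9 of 266 in LLS2, with 0 in the other 3 ewes. Their median depth was 18430 UMI, against 12489 UMI in the 663 mural-type cells with 0 GCG UMI. Summed endothelial markers were 0.606 UMI per 10000 UMI in these cells and 0.567 in the cells with 0 GCG UMI, and summed granulosa markers were 25.8 and 37.7. These values pool ewes. Over all mural-type cells the granulosa markers summed to 29.5 in HLS1, 23.0 in LLS1 and 35.8 in LLS2. They summed to 42.0 in HLS2, 49.1 in HLS3 and 49.9 in LLS3. The gap in granulosa markers therefore cannot be told apart from a difference between ewes. A part of doublets in the highest cells was not tested beyond the removal of called doublets.

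**Figure D2:**
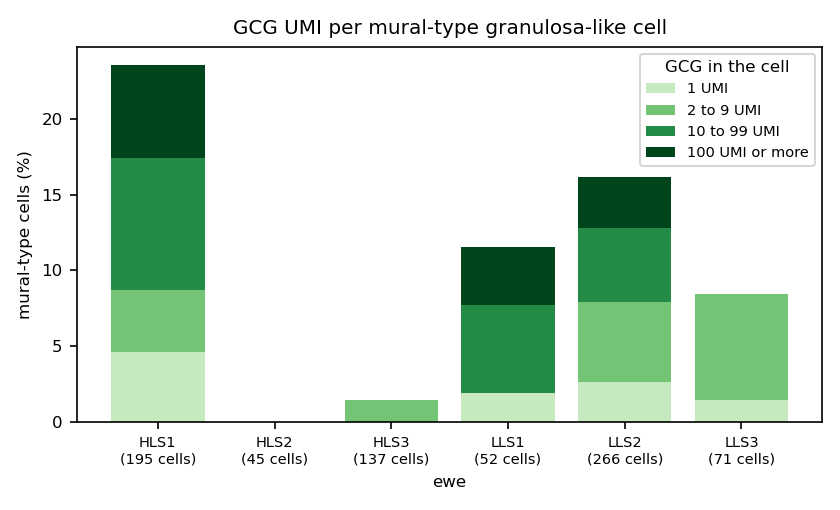
Share of mural-type granulosa cells (y axis, percent) with 1, 2 to 9, 10 to 99 or at least 100 GCG UMI in each ewe (x axis, with the number of cells). HLS1 reached 23.6%, LLS2 16.2% and LLS1 11.5%, and the darkest parts, cells with at least 100 UMI, occurred in these 3 ewes; HLS2 had 0 of 45 cells.

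Of the 3 sub-clusters that make up the mural-type class, sub-cluster 1 (369 cells) held 5533 GCG UMI and sub-cluster 7 (207 cells) held 2445. Sub-cluster 7 reached 10 cells only in LLS2, with a level of 8.20, and was led by the interferon-induced genes MX1, ISG15 and RSAD2. Sub-cluster 10 (190 cells, led by MMP9 and FN1) held 42 UMI, at 0.224 ± 0.305 (SD, n = 4 ewes). In sub-cluster 1 the level was 19.1 in HLS1, 0 in HLS2 and HLS3, 8.05 in LLS1, 8.72 in LLS2 and 0.036 in LLS3. The spread between ewes was thus also present within 1 sub-cluster. GCG itself led the gene list of sub-cluster 1, although the 5 genes and the listed genes were kept out of the genes used for clustering.

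Outside the granulosa clusters GCG was found as scattered single UMI. There were 148 UMI in HLS1, 64 in LLS2 and 0 to 5 in each other ewe, and the share of these cells with a UMI was 2.82% in HLS1 and 1.36% in LLS2. The same share in mural-type cells was 23.6% in HLS1 and 16.2% in LLS2. The median depth of mural-type cells was 12929.5 UMI and that of LHX9 stroma, where 40 of 4304 cells had a GCG UMI, 3642.5 UMI. After thinning every cell to 2000 UMI, 10.04% of mural-type cells kept a GCG UMI. The part of free RNA in the UMI outside granulosa clusters was not tested. Neither expression of GCG nor its absence is therefore read from the non-granulosa classes.

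CCK, by contrast, was low and spread over several classes. Its highest mean level was in Schwann cells, at 0.822 ± 1.24 (SD, n = 6 ewes), from 39 UMI in 10 of 138 cells. The Schwann values were 0.835 in HLS1, 0.176 in HLS2, 0 in HLS3, 0.148 in LLS1, 0.494 in LLS2 and 3.28 in LLS3. LLS3 carried the mean, which was 0.331 without it, and 1 cell held 19 of the 39 UMI. With 10 to 39 Schwann cells per ewe, the class is described and no order between ewes is read from it.

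The class with the most CCK UMI, 194 of 427 (45.4%), was mural-type granulosa cells, where 44 of 766 cells (5.74%) had a UMI. The level there was 0.082 in HLS1, 0.070 in HLS2, 0.524 in HLS3, 0.032 in LLS1, 0.091 in LLS2 and 0.407 in LLS3. HLS3 and LLS3 were high, and both had low GCG (0.036 and 0.407), whereas GCG was highest in HLS1. HLS2 was low in both genes, with 0 for GCG. Within the class, sub-cluster 10 held 126 of the CCK UMI, at 0.489 ± 0.159 in the 4 ewes with at least 10 of its cells (0.333 in HLS1, 0.529 in HLS3, 0.402 in LLS2 and 0.694 in LLS3). Sub-cluster 1 held 52 CCK UMI, at 0.515 in HLS3, near the 0.529 of sub-cluster 10 there, and at 0 to 0.098 in the other ewes. By mean level GCG and CCK thus led in different mural-type sub-clusters. A UMI of both genes was held by 3 cells, out of 103 cells with GCG and 44 with CCK. With ewes pooled, CCK was found in 2.91% of the cells with GCG and 6.18% of those without, a gap that was not tested. Macrophages gave a low level of CCK, between 0.014 and 0.102, with 20 of 1077 cells positive (1.86%), against 16 of 4304 cells (0.372%) in LHX9 stroma. HLS1 macrophages had 1 UMI, under the floor of 3. A single macrophage held 8 of 9 CCK UMI in HLS2 and 7 of 8 in HLS3.

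PENK was a stromal transcript, with 3566 of 3991 UMI (89.4%) in stromal clusters. Adventitial stroma, the matrix-rich fibroblasts that surround vessels, had the highest level, 2.25 ± 1.69 (SD, n = 6 ewes). The values were 3.01 in HLS1, 2.00 in HLS2, 2.89 in HLS3, 4.75 in LLS1, 0.175 in LLS2 and 0.640 in LLS3. LLS2 and LLS3 were low and LLS1 was the highest, so the groups overlapped. LLS2 gave 624 of the 1576 adventitial cells and 2.40% of them had a PENK UMI, against 27.9 to 39.2% in the 3 HLS ewes and LLS1.

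LHX9 stroma held 1968 PENK UMI, 49.3% of the total, in 486 of 4304 cells (11.3%). Its level was 1.56 in HLS1, 1.30 in HLS2, 0.375 in HLS3, 0.627 in LLS1, 0.381 in LLS2 and 0.012 in LLS3. LLS3 was lowest, and HLS3 fell between LLS ewes. In the other large stromal classes PENK was near the level of scattered UMI, for example 28 UMI in 2444 cells of stromal cluster 4 (led by PTCH1 and COL11A1). After thinning to 2000 UMI, 12.1% of adventitial and 8.01% of LHX9 cells kept a PENK UMI, and 0.960% of pericytes did.

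Outside stroma, PENK reached 0.786 in pericytes of HLS1 and 0 to 0.035 in pericytes of the other 5 ewes. The 7 stromal markers summed to 40.0 UMI per 10000 UMI in the pericytes of HLS1 and to 46.2 to 91.8 in those of the other ewes. HLS1 also had the lowest stromal sum in LHX9 stroma (132 against 175 to 349) and in adventitial stroma (178 against 329 to 671). Its low sum in pericytes is therefore not read as less stromal RNA. The 6 perivascular markers summed to 24.8 in the HLS1 pericytes, the lowest of the 6 ewes, against 40.7 to 60.3. The part of other cells in the PENK value was not tested. TAC3 was also high in the HLS1 pericytes, at 4.68 against 0.035 to 0.619 in the others. In arterial endothelium 50 of 2031 cells (2.46%) had a PENK UMI, against 5 of 1077 macrophages (0.464%), at median depths of 7820 and 6370 UMI. The arterial level was 0.026 to 0.105 in 5 ewes, and LLS3 had 1 UMI, under its floor of 3.

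**Figure D3:**
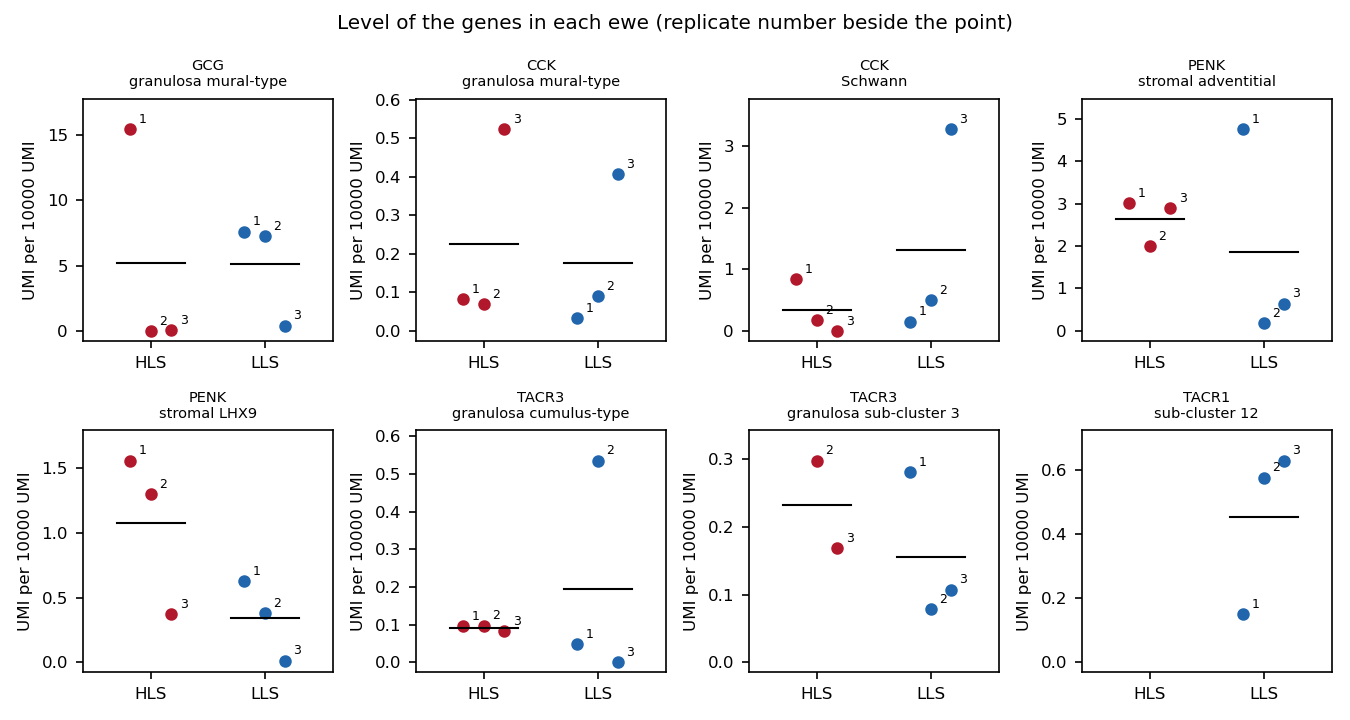
Level in each ewe (points, with the replicate number beside them; UMI per 10000 UMI on the y axis) in HLS and LLS ewes, for 8 pairs of gene and class; the line is the group mean and ewes with fewer than 10 cells are left out. The groups overlap in each of the 7 pairs held by both groups, and GCG in mural-type cells runs from 0 (HLS2) to 15.4 (HLS1); TACR1 in sub-cluster 12 has LLS ewes alone.

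Of the receptors, TACR3 was the more frequent and lay mainly in granulosa clusters, with 384 of 595 UMI (64.5%). Its highest mean level was in granulosa sub-cluster 2, whose leading genes were CCN3 and ANGPT2, with TACR3 itself among the first 10. The level there was 0.233 in HLS2, 0.595 in HLS3 and 0.391 in LLS3, and the other 3 ewes gave 1 to 5 cells each and no value. The HLS2 value came from 2 UMI in 12 cells, under the floor of 3. A UMI was seen in 92 of 346 cells (26.6%, exact 95% interval 22.0 to 31.6%). HLS3 gave 209 of these cells and LLS3 114, so the class rests largely on 2 ewes, and its ewes overlapped with those of the classes that follow.

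Sub-cluster 3, led by PTX3 and G0S2, followed at 0.186 ± 0.099 (SD, n = 5 ewes), with 0.298 in HLS2, 0.168 in HLS3, 0.281 in LLS1, 0.079 in LLS2 and 0.107 in LLS3. The LLS2 value was 1 UMI in 12 cells, under the floor of 3. Cumulus-type cells (AMH, IHH) had 0.143 ± 0.195 (SD, n = 6 ewes), from 0 in LLS3 to 0.535 in LLS2, and 0.065 without LLS2. Mural-type cells had 0.054 ± 0.053. The ranges of these 3 classes overlapped between ewes (0.079 to 0.298, 0 to 0.535 and 0 to 0.145). Within ewes, sub-cluster 3 was above mural-type cells in every ewe with both values. Sub-cluster 2 was above mural-type and cumulus-type cells in HLS2, HLS3 and LLS3. These orders were not tested, and some rest on values at or under the floor. No order is read between sub-clusters 2 and 3, or between cumulus-type cells and either sub-cluster 3 or mural-type cells. In granulosa sub-clusters 2 and 3 the GCG UMI numbered 1 and 20, and the 20 lay in 1 cell.

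TACR3 also had a low stromal part of 176 UMI (29.6%). Stromal cluster 4 had 0.050 ± 0.030 (SD, n = 6 ewes), with a value in every ewe between 0.020 and 0.101 and 71 of 2444 cells positive (2.91%). LHX9 stroma followed at 0.027 ± 0.017. Arterial endothelium had 0 UMI of TACR3 in 2031 cells, which allows up to 0.0016 UMI per 10000 UMI. The part of free RNA in the stromal UMI was not tested.

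TACR1 was the rarest of the 5 genes, with at most 3 UMI in a cell. Epithelial cluster 28, 71 cells led by the ciliary genes CCDC39, DNAH5 and RSPH1, held 38 of its 91 UMI (41.8%) in 24 cells (33.8%, exact 95% interval 23.0 to 46.0%). The level was 0.760 in LLS2 and 0.340 in LLS3, and these were the 2 ewes with at least 10 such cells (44 and 19). The other epithelial cluster, 272 cells with KRT19 and MUC16 among their leading genes, held 2 UMI of TACR1.

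Sub-cluster 12 of the granulosa clustering held a further 20 UMI in 15 of 111 cells, at 0.150 in LLS1, 0.575 in LLS2 and 0.628 in LLS3. The LLS1 value was 1 UMI in 16 cells, under the floor of 3. Sub-cluster 12 was led by CYTL1 and RGS5. Its 9 granulosa markers summed to 2.56 to 4.91 UMI per 10000 UMI, against 16.5 to 18.6 in sub-cluster 3, so its markers go against the granulosa label. The HLS ewes gave 8, 6 and 0 cells of it. Over all cells, TACR1 UMI numbered 2 in HLS1, 4 in HLS2, 4 in HLS3, 3 in LLS1, 59 in LLS2 and 19 in LLS3, and LLS2 and LLS3 were also the ewes that gave most cells of both classes (44 and 19, and 63 and 18).

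The partners of these genes were read from a list of 12 ligands and receptors. TAC1, the substance P precursor, was highest in pericytes, at 4.24 ± 1.23 (SD, n = 6 ewes) and between 2.31 and 5.76 in every ewe. Sub-cluster 12 followed at 1.80 ± 0.803 (n = 3 ewes) and adventitial stroma at 0.924 ± 1.13. TAC1 and its receptor TACR1 were thus both among the detected genes of sub-cluster 12, whereas pericytes held 1 UMI of TACR1 in 1513 cells. The level of the summed perivascular markers was 3.14 to 8.39 between the ewes of sub-cluster 12. It was 0.471 to 0.926 in sub-cluster 3 and 24.8 to 60.3 in pericytes. The part of pericyte RNA or of doublets in the TAC1 of sub-cluster 12 was not tested.

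TAC3, the neurokinin B precursor, was highest in adventitial stroma at 1.53 ± 1.23 (SD, n = 6 ewes), with 3.79 in HLS1 and 0.208 in LLS2 as the extremes. In follicles it was highest in estrogenic granulosa cells (CYP19), at 1.32 in HLS2 and 1.03 in LLS1, the 2 ewes with enough of those cells. Its receptor TACR3 had 0 UMI in those 136 cells, which allows up to 0.0541 UMI per 10000 UMI at their median depth of 2708.5 UMI. TACR2 was spread thinly over 1102 UMI, highest in granulosa sub-cluster 5 at 0.127 ± 0.106, and TAC4 had 2 UMI.

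**Figure D4:**
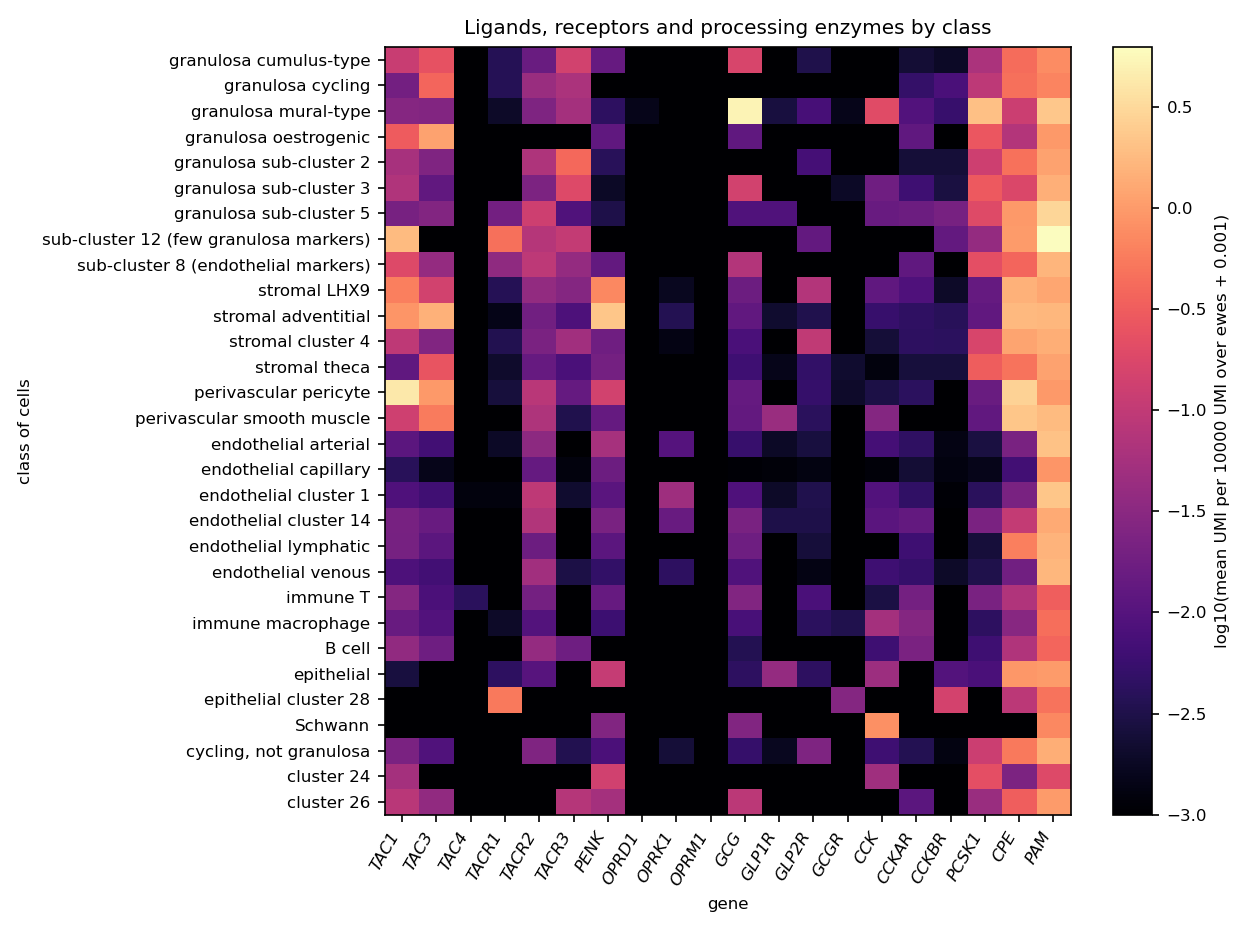
Mean level (log10 of UMI per 10000 UMI plus 0.001, averaged over ewes) of tachykinin, opioid, glucagon and cholecystokinin ligands and receptors and of processing enzymes (columns) in each class held by at least 2 ewes (rows). TAC1 is brightest in pericytes (4.24), TAC3 in adventitial stroma (1.53) and PCSK1 in mural-type granulosa cells (1.97), while the columns of OPRM1, OPRD1 and GCGR are close to black.

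The receptors of the 3 hormones were scarce. OPRM1 had 0 UMI, which at the total of retained cells allows up to 9.4e-05 UMI per 10000 UMI, and OPRD1 had 1 UMI. OPRK1, the kappa opioid receptor, had 432 UMI and was highest in endothelial cluster 1 at 0.048 ± 0.118, a value that came from LLS3 alone (0.288, with 0 in the other 5 ewes). GCGR had 7 UMI and GLP1R 33, while GLP2R, the receptor of glucagon-like peptide 2, had 513 UMI and was highest in stromal cluster 4 (0.099 ± 0.042, n = 6 ewes) and LHX9 stroma (0.074 ± 0.020). CCKAR had 154 UMI, highest in macrophages at 0.027 ± 0.020, and CCKBR had 46 UMI.

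Of 12 listed genes of peptide processing and storage, 10 were in the tables and 8 of them reached 0.5 UMI per 10000 UMI in some class. PCSK1, the convertase that cuts proglucagon to glucagon-like peptides in gut cells, was highest in mural-type granulosa cells, at 1.97 ± 0.827 (SD, n = 6 ewes), and followed in theca cells at 0.313 ± 0.221. In mural-type cells PCSK1 was 0.646 in HLS1, where GCG was highest, and 1.48 to 2.82 in the other 5 ewes. Cell by cell, with ewes pooled, 65.0% of the mural-type cells with GCG and 55.5% of those without had a PCSK1 UMI, a gap that was not tested. The cells with 10 to 99 GCG UMI had a median depth of 12441 UMI and 63.6% had PCSK1, and the PCSK1 level was 2.21 to 2.53 UMI per 10000 UMI in the 3 sets of cells with GCG and 1.81 in those without. PAM, which amidates peptides such as cholecystokinin and the tachykinins, was highest in sub-cluster 12 (6.27 ± 0.719, n = 3 ewes), and CPE, which trims basic residues, in pericytes (2.77 ± 0.583). PCSK2, SCG5, ANPEP and GIP were not analysed here. Of the 4 listed peptidases, MME was highest in epithelial cells (1.86 ± 1.16, n = 4 ewes) and DPP4, which inactivates glucagon-like peptide 1, in T cells (0.539 ± 0.235).

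Among 32 other peptide hormones, 31 were in the tables, 7 reached 0.5 UMI per 10000 UMI in some class and 17 had under 100 UMI in all. NMB, neuromedin B, was highest in estrogenic granulosa cells (27.4 ± 8.66, n = 2 ewes) and then in sub-cluster 2 (14.8 ± 4.25, n = 3 ewes), the sub-cluster with the highest mean of TACR3. PTHLH was highest in Schwann cells (1.01 ± 0.902), STC1 in theca cells (3.13 ± 1.85) and EDN1 in endothelial cluster 14 (4.27 ± 2.47). Of 23 receptors of other peptide hormones 5 reached that level, among them EDNRB in Schwann cells (3.02 ± 1.22) and AGTR1 in pericytes (0.852 ± 0.232).

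The genes whose pattern over 27 clusters was most like that of each of the 5 were sought among 8009 genes, by Pearson correlation of log2 levels. Clusters share libraries and depth and are not replicates, so these correlations are descriptions. For GCG they were XIRP1 (r = 0.98), itself a marker that named the mural-type class, and MUSK (0.98) and MMP1 (0.94), for PENK ISLR (0.93), C1S (0.92) and LRP1B (0.89), and for CCK CNTNAP2 (0.94), CHL1 (0.90) and CNMD (0.89). For TACR1 they were TMEM212, ERICH3 and DNAH10 (0.997, 0.996 and 0.995), each of them high in epithelial cluster 28, at 2.34 to 3.17 UMI per 10000 UMI. TACR3 had weaker matches (GCLC 0.82, LOC101117443 0.82, CSRNP3 0.82). The 27 clusters do not split the granulosa sub-clusters, and LOC101117443 was 0 in each of the 5 ewes of sub-cluster 3. A like pattern over clusters did not mean a like pattern over ewes. In mural-type cells XIRP1 was lowest in HLS1 (0.472, against 1.71 to 3.89 in the others), the ewe with the highest GCG, while MMP1 was highest there (1.77, against 0.136 to 1.17).

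HLS against LLS, the study's own contrast, was tested here with UMI summed per ewe by edgeR's quasi-likelihood test, adjusted over all genes tested. The paper instead compared cells with presto in Seurat, at a P value under 0.05 and a limit on fold change. Its counts of genes therefore rest on another unit and threshold. The 5 genes were chosen with their values per sample in view, so their p-values are not independent evidence. In all retained cells 0 of 17940 genes (0%) passed an adjusted p of 0.05, and 544 passed at an unadjusted p under 0.05. The counts were also 0 (0%) in granulosa (11892 genes tested), stromal (14741), endothelial (15109), perivascular (10850), immune (10237), mural-type (9004), adventitial (9538), sub-cluster 3 (4280) and Schwann cells (1731), where between 75 and 617 genes passed unadjusted. DESeq2 called 61 genes in all retained cells and between 0 and 30 elsewhere. None of the 5 genes was called by either tool in any of these 10 fits, and DESeq2 gave no adjusted p for GCG in mural-type cells.

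PENK in all retained cells came closest. Its level was 0.299 in HLS1, 0.136 in HLS2, 0.131 in HLS3, 0.092 in LLS1, 0.051 in LLS2 and 0.010 in LLS3. The groups did not overlap, and PENK was higher in 3 of 3 HLS ewes than in every LLS ewe. The share of all genes whose groups do not overlap was not counted in any set of cells. No result is read from the lack of overlap. The log2 fold change was 2.07 ± 0.785 (SE), with an unadjusted p of 0.033 and an adjusted p of 0.998 by edgeR (0.423 by DESeq2), so the difference did not pass. In a sum over all cells, more cells of a type and more RNA per cell cannot be told apart. LHX9 stroma made up 21.9, 13.1 and 13.6% of the retained cells of HLS1 to HLS3. It made up 10.7, 6.67 and 6.19% of those of LLS1 to LLS3. These shares did not overlap, and neither did those of the epithelial class (0.074 to 0.270% in HLS, 0.465 to 3.53% in LLS). The number of classes without overlap was not counted, so no result is read from these shares. The part of LHX9 stroma in the PENK difference was not tested.

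In each of the cell types where PENK passed the filter on low counts, its levels overlapped between the groups. In stromal cells the log2 fold change was 0.85 ± 0.977 (SE; adjusted p = 0.877), in adventitial stroma 0.64 ± 0.795 (adjusted p = 0.990) and in endothelial cells 1.20 ± 0.783 (adjusted p = 0.9999), all by edgeR. In granulosa cells, where it did not pass, PENK had 19 UMI in all. Its levels there (0.0184, 0.0119 and 0.0059 in HLS, 0.0056, 0.0017 and 0 in LLS) did not overlap. The share of all genes without overlap was not counted, so no result is read from that. In perivascular cells PENK did not pass the filter on low counts, and HLS1 held 132 of its 145 UMI there. A fit without that filter gave a log2 fold change of 4.30 with an adjusted p of 4.8e-04 by edgeR, but the levels of HLS2 (0.007) and HLS3 (0.015) lay within those of the LLS ewes (0.004 to 0.021).

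GCG differed between groups by far less than between ewes. In mural-type cells the means were 5.16 in HLS and 5.09 in LLS, and the log2 fold change was 0.33 ± 1.61 (SE; adjusted p = 0.9999 by edgeR). In all granulosa cells it was 1.14 ± 2.09 (adjusted p = 0.970), and without HLS1 it turned to -8.67 ± 1.63 (adjusted p = 0.575). In granulosa sub-cluster 3 an unfiltered fit called GCG lower in HLS (adjusted p = 7.6e-07 by edgeR), from 20 UMI in a single cell of LLS3.

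CCK gave log2 fold changes of 0.37 ± 0.667 in all cells, 0.39 ± 0.790 in granulosa cells and 0.64 ± 0.809 in mural-type cells (SE; adjusted p between 0.977 and 0.999 by edgeR). In Schwann cells, its highest class, CCK did not pass the filter and the groups overlapped, with means of 0.337 in HLS and 1.31 in LLS. TACR3 gave 0.12 ± 0.447 in granulosa cells and -0.46 ± 0.598 in stromal cells (adjusted p = 0.997 and 0.893). In sub-cluster 3, tested for TACR3 because sub-cluster 2 had too few ewes in a group, TACR3 was under the filter and its means were 0.233 in HLS (2 ewes) and 0.156 in LLS (3 ewes). TACR1 was under the filter in all 10 fits, and neither of its 2 highest classes had 10 cells in any HLS ewe. In granulosa cells TACR1 did not overlap between groups, at 0, 0 and 0.0024 in HLS and 0.0056, 0.0351 and 0.0168 in LLS. These levels rest on 28 UMI, 20 of them in sub-cluster 12, whose markers go against the granulosa label. The share of all genes without overlap was not counted, so no result is read from the TACR1 levels.

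**Figure D5:**
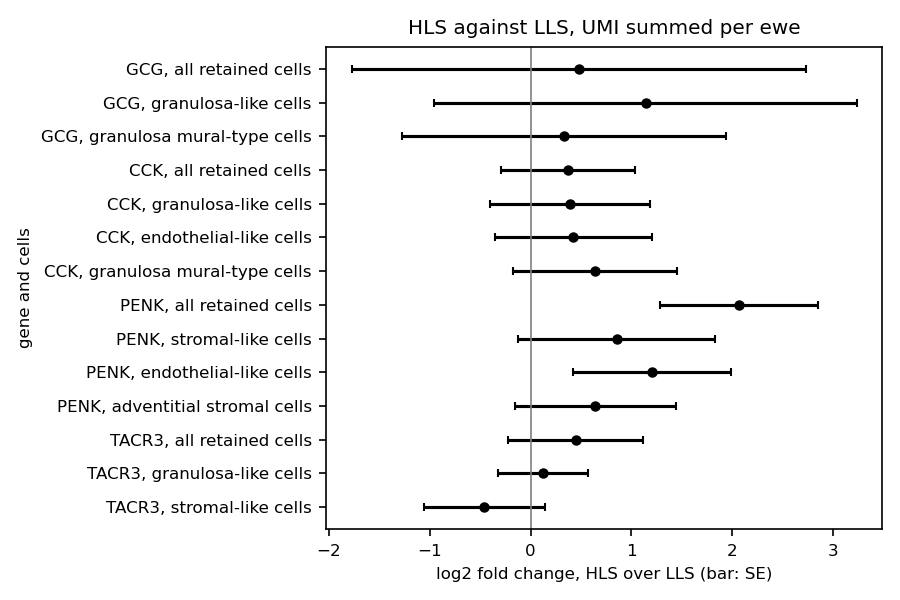
Log2 fold change of HLS over LLS (x axis, points, with bars of 1 SE) for each gene and set of cells in which it passed the filter on low counts, from edgeR on UMI summed per ewe. PENK in all retained cells (2.07 ± 0.785) lies farthest from 0, and the adjusted p is at least 0.877 for each of the 14 points.

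Among the listed partners 0 of those tested passed the adjusted threshold in any fit. In all retained cells 5 of the 12 ligands and receptors were tested and GLP2R had an unadjusted p under 0.05. That was 1 of 5, beside 544 of 17940 over all genes. In granulosa cells 3 were tested and TAC1 was below 0.05 unadjusted, beside 563 of 11892 genes. In perivascular cells 3 were tested and TAC3 was below 0.05, at a log2 fold change of 2.73 ± 0.949 (SE; unadjusted p = 0.017, adjusted p = 0.989 by edgeR), beside 342 of 10850 genes. HLS1 pericytes held the high TAC3 level given above. The median log2 fold change of the 5 tested ligands and receptors in all retained cells was 0.26, beside -0.0024 over all genes, and that of the 3 tested in granulosa cells was -0.53, beside 0.014 over all genes.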

How the data were processed

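Ovary cells of 6 ewes were profiled by 10x Genomics 3' sequencing. Per the labels and the paper's methods, the authors made UMI counts per gene and barcode with Cell Ranger and STAR; the genome build of the files is not given in the sources used here. The deposited counts were raw, whole numbers. Barcodes with at least 1000 UMI, at least 200 genes, log10 genes over log10 UMI of at least 0.7, at most 10% mitochondrial and at most 5% hemoglobin UMI were kept. Doublets were called against 2 simulated doublets per cell, at 0.8% per 1000 cells, and removed.

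Cells were clustered on 2000 variable genes, the 5 genes and listed genes left out, with 30 principal components, 20 neighbors and Leiden resolution 0.8 (leidenalg 0.10.2, scikit-learn 1.9.0, scipy 1.17.1, numpy 2.4.6, pandas 2.3.3, Python 3.11.15). Names came from marker lists. The minimum marker scores (0.4, and 0.45 for subtypes, with 0.9 where no own marker was among the 10 leading genes), the separate treatment of epithelial cluster 28 and the clusters left unnamed were chosen after the clusters were seen, and other names could move cells between classes. Genes were named by fixed lists: the 5 genes, their ligands and receptors, processing and breakdown enzymes, other peptide hormones and their receptors, and the 3 genes most alike over clusters. The 5 genes and all lists were chosen with earlier results of these data known.

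UMI were summed per ewe and tested with edgeR 4.0.16 in R 4.3.3 (quasi-likelihood, filterByExpr, TMM), with Benjamini-Hochberg adjustment over all genes tested; DESeq2 1.42.0 was an alternative. Each ewe counted once, so p-values set the difference between groups against the spread between ewes. Fits were made for all retained cells, for 5 broad cell types and for the highest class of GCG, CCK, PENK and TACR3. That class needed at least 2 ewes of each group with at least 10 cells. No class was fitted for TACR1, whose highest classes had no HLS ewe with 10 cells. Other classes, LHX9 stroma among them, were not fitted. The sums ranged from 21927 to 66098200 UMI. In sub-cluster 3, HLS1 was left out for want of cells. Intervals are exact binomial at 95%, and the floor of a count of 0 is 3 UMI. Likeness used log2(level + 0.1) over genes reaching 0.5 UMI per 10000 UMI. The tests were run on simulated counts for granulosa and stromal cells, but their power to find a change is not given here. A count of 0 genes called is therefore not read as a lack of difference.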

Additional observations from a re-analysis of the deposited data

How the results depend on the processing

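Levels were computed again under other settings of filters, doublets, clustering and weighting. Those of GCG, CCK and PENK in their highest classes moved by less than the SD between ewes. TACR3 was checked in cumulus-type cells and TACR1 over all epithelial cells, not in the classes where their mean levels were highest. The TACR3 level moved by less than its SD, but that SD exceeded the mean, so little is read from it. TACR1 over all epithelial cells was 0.0607 UMI per 10000 UMI in cells thinned to 2000 UMI, against 0.117, a larger move than its SD. How the levels of these receptors in their highest classes depend on the settings was not tested. Leaving out single ewes gave 3.06 to 6.15 for GCG, 0.331 to 0.987 for CCK in Schwann cells and 1.74 to 2.66 for PENK in adventitial stroma.

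The count of genes called, 0 in every fit by edgeR, became 61 in all retained cells, 2 in granulosa, 6 in stromal, 6 in endothelial, 1 in perivascular, 30 in immune, 1 in mural-type, 2 in adventitial and 3 in sub-cluster 3 cells with DESeq2. With no filter on low counts it became 15 in perivascular, 190 in immune, 98 in mural-type, 55 in adventitial, 49 in sub-cluster 3 and 4 in Schwann cells, and without TMM factors 1 in sub-cluster 3. Leaving out 1 ewe at a time gave 0 to 1 in stromal, 0 to 3 in endothelial, 0 to 1 in perivascular, 0 to 3 in immune and 0 to 8 in sub-cluster 3 cells; the highest counts came without LLS1 (stromal, endothelial, perivascular), HLS3 (immune) and HLS2 (sub-cluster 3, where the lone HLS ewe is assumed to vary like the others). The cause was not tested.

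The log2 fold change of GCG ran from -8.08 to 3.09 in all retained, -8.67 to 1.93 in granulosa and -7.57 to 0.92 in mural-type cells with single ewes left out, negative without HLS1 and, in all retained and mural-type cells, without LLS3. That of CCK ran from -0.13 to 0.73 in all retained, -0.33 to 1.10 in granulosa and -0.21 to 1.69 in endothelial cells, and that of TACR3 from -0.22 to 1.03 in all retained and -0.46 to 0.40 in granulosa cells, where it was -0.0249 without TMM factors. PENK stayed positive in all retained (1.37 to 2.91), stromal (0.26 to 3.01) and adventitial cells (0.07 to 2.96).

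HLS and LLS ewes share replicate numbers, and the labels do not say that the numbers pair ewes. The correlation of same-numbered deviations ran from -0.348 to 0.286 and was over 0.1 for every number in none of the fits. With 3 ewes per group, these correlations cannot show whether ewes were paired. With the replicate block 3 genes were called in immune cells and 5 in sub-cluster 3, and GCG reversed to -2.61 in all retained, -3.68 in granulosa and -2.47 in mural-type cells. The sub-cluster 3 fit under the 20% mitochondrial limit and with doublets kept was not run, since sub-clusters are numbered anew there. Rare classes limit CCK in Schwann cells and TACR1.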
